A study of Mus musculus with 4 samples.

Results

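All cells of the control and Mll3/4SI libraries that passed 3 limits on quality were compared over the autosomal genes. A cell was kept with at least 500 genes, at least 1000 unique molecular identifiers (UMIs, each standing for 1 captured RNA molecule) and at most 10% of its UMIs from mitochondrial genes. By this rule 7152 of 7887 control barcodes and 7166 of 7524 Mll3/4SI barcodes were kept, which is 14318 of the 34122 kept cells of the series. The series measured RNA and surface antibodies in the same single cells (CITE-seq) of mouse bone marrow that carried the leukocyte marker CD45.2 and the stem cell factor receptor Kit, 10 weeks after transplantation. There were 4 groups of 1 library each: a control, Mll3SI alone, Mll4SI alone and the combined Mll3/4SI. The title of the series names MLL3 and MLL4 and functions beyond the enzymatic ones of the COMPASS complexes. The labels did not spell out SI, and gave neither the strain and sex of the animals nor the number pooled. Library names written for the same samples call control wt and Mll3/4SI dKI.

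MLL3 and MLL4, encoded by Kmt2c and Kmt2d, are the large histone methyltransferases of COMPASS-type complexes that place the methyl mark of active and primed enhancers on lysine 4 of histone H3. Their complexes also bring other chromatin regulators to enhancers, so that the proteins have roles besides their catalytic activity. Kit marks stem cells and the early progenitors of the myeloid, erythroid and mast cell lineages in the marrow, and granulocyte precursors lose it as they mature.

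Kept control cells held 138592699 gene UMIs and kept Mll3/4SI cells 157355707, with medians of 17284.5 and 19644 UMIs per cell. With 1 library on each side there was no replicate error, so intervals given below are exact 95% intervals of counting error alone and no test between conditions was possible. Each library held 2 hashtag antibodies, whose meaning the labels did not give. Cells above the threshold of 1 hashtag alone numbered 3479 (Hashtag1) and 3355 (Hashtag2) in control, and 2998 and 3790 in Mll3/4SI. The 4 hashtag parts are used here as a description of the spread within a library and not as replicates. Kit RNA was at 111 CPM (UMIs of the gene after scaling each library to the same total) in control and 108.5 CPM in Mll3/4SI, and the median antibody count against the Kit protein (CD117) was 100.5 and 107 UMIs per cell. As a share of surface antibody UMIs CD117 was at 6.82% in control and 6.20% in Mll3/4SI. The leukocyte gene Ptprc was at 223 and 213 CPM. The libraries also differed in sex-linked RNA. Xist, the X-linked RNA of female cells, was at 0.0289 CPM in control and 1349 CPM in Mll3/4SI, and the Y-linked gene Eif2s3y was at 63.2 CPM in control and had 0 UMIs in Mll3/4SI. The group and the difference in sex-linked RNA cannot be told apart in any result below. The pair shared 13 cell barcodes, 0.182% of the kept control cells.

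Kmt2c was at 130.3 CPM in control and 124.7 CPM in Mll3/4SI, 1.04-fold lower (interval 1.02 to 1.07). Kmt2d was at 41.68 and 33.33 CPM, 1.25-fold lower (1.204 to 1.298). Neither passed the fold used for calls. UMIs were summed over the whole gene, and whether a change lies inside either gene was not analysed here.

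Most of the autosomal transcriptome was at a similar level in the 2 libraries. A gene was called where the log2 ratio of CPM + 1 was at least 1 or at most -1, among 11940 autosomal genes with a mean of at least 1 CPM. The median log2 ratio over these genes was -0.05. In Mll3/4SI 189 genes were higher past this fold (1.58% of those tested) and 111 were lower (0.93%). At a log2 ratio of 0.5, 539 genes (4.51%) were higher and 532 (4.46%) lower. The hashtag parts of Mll3/4SI lay above both control parts for 181 of the 189 higher genes and below both for 107 of the 111 lower genes. Over all tested genes, most of them not past the fold, such a separation was seen for 2328 genes upward (19.5%) and 4993 downward (41.8%). The parts hold the same UMIs that gave the calls. Their separation among called genes therefore follows largely from the call and adds no support to it. With CPM summed over all cells, fewer cells of a type and less RNA per cell cannot be told apart.

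The counts rest in part on low genes and on the make-up of the libraries. Where genes needed a mean of at least 10 CPM, 69 were higher and 47 lower. When the cluster values of Mll3/4SI were weighted by the cluster shares of control, 88 genes were higher and 43 lower, of which 79 and 36 were among the genes above. Hashtag1 cells alone gave 107 higher (0.896%) and 89 lower genes (0.745%), and Hashtag2 cells alone gave 278 (2.33%) and 197 (1.65%).

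**Figure D1:**
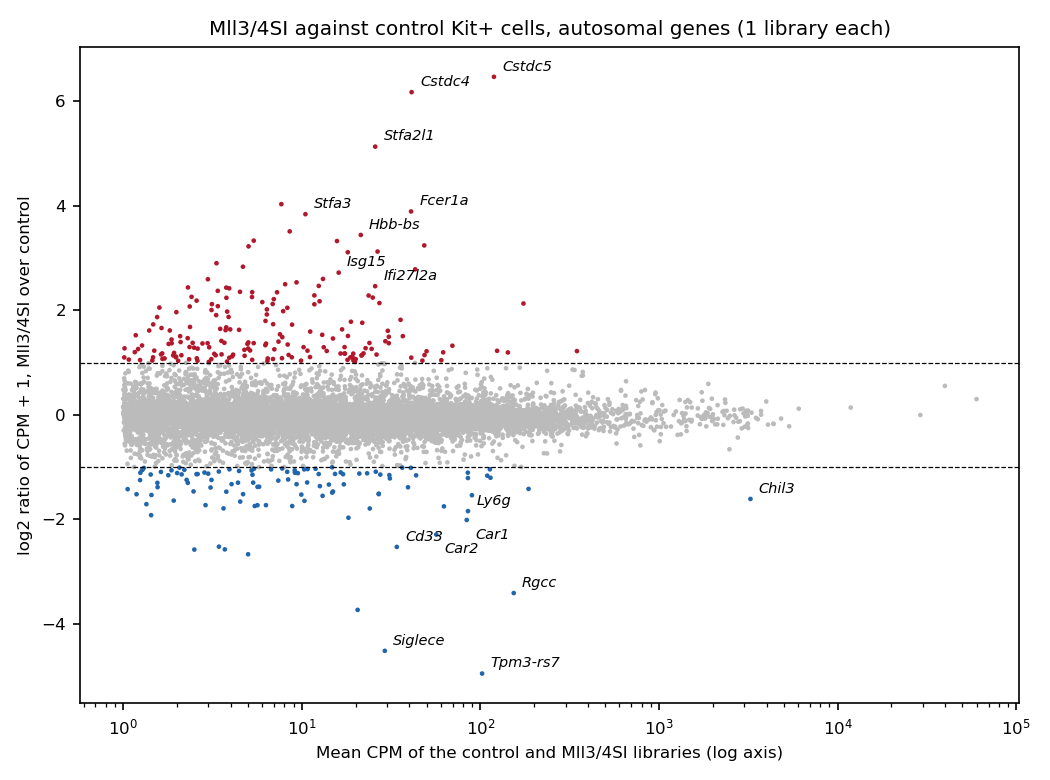
Each point is 1 of the 11940 tested autosomal genes, with its mean CPM on a log axis and the log2 ratio of CPM + 1 of Mll3/4SI to control on the vertical axis. Lines at 1 and -1 mark the fold used for calls, and the labelled genes run from Cstdc5 at 6.47 to Tpm3-rs7 at -4.95.

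Both libraries were clustered together into 24 clusters, and 13 clusters that could be named from marker genes held at least 50 cells of each. Another 5 clusters drew over 95% of their cells from Mll3/4SI. They held 3316 of its 7166 cells (46.3%, exact interval 45.1 to 47.4%) and 9 control cells (0.126%). They took 28.1% (26.5 to 29.8%) of the Hashtag1 cells of Mll3/4SI and 62.2% (60.7 to 63.8%) of its Hashtag2 cells. Clusters 3, 6 and 14 of these were granulocyte-like, and clusters 8 and 19 were left unnamed. List genes, marker genes, the 15 highest and 15 lowest named genes and genes off the autosomes were left out of the clustering. Other autosomal genes compared here did shape the clusters, so the cluster sizes are given as a description. In the other direction, granulocyte-like cluster 1 held 15.1% of control cells and 36 Mll3/4SI cells (0.502%).

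Few of the called genes differed in every compared cluster. Most of the 13 clusters were granulocyte-like, so they are not 13 cell types. The B-lymphoid-like, T/NK/ILC-like and dendritic-like clusters were too small to be compared. Of the 189 higher genes, 7 were past the fold in all 13 compared clusters, 25 in at least 10, 67 in 1 to 3 and 24 in none. Of the 111 lower genes, 3 were past it in all 13, 12 in at least 10, 44 in 1 to 3 and 7 in none. The 7 were the interferon-stimulated Isg15 and Ifi27l2a, the ephrin receptor gene Epha5, the glutamate receptor gene Grm8, the syndecan gene Sdc2, Gm12166 and Gm49980. The 3 lower genes were Tpm3-rs7, 1700016D06Rik and AI987944. Over all 11940 tested genes, 1.56% of the values of a gene in 1 of these clusters were higher past the fold and 1.39% lower. Of all tested genes 0.0586% were higher and 0.0251% lower in all 13.

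**Figure D2:**
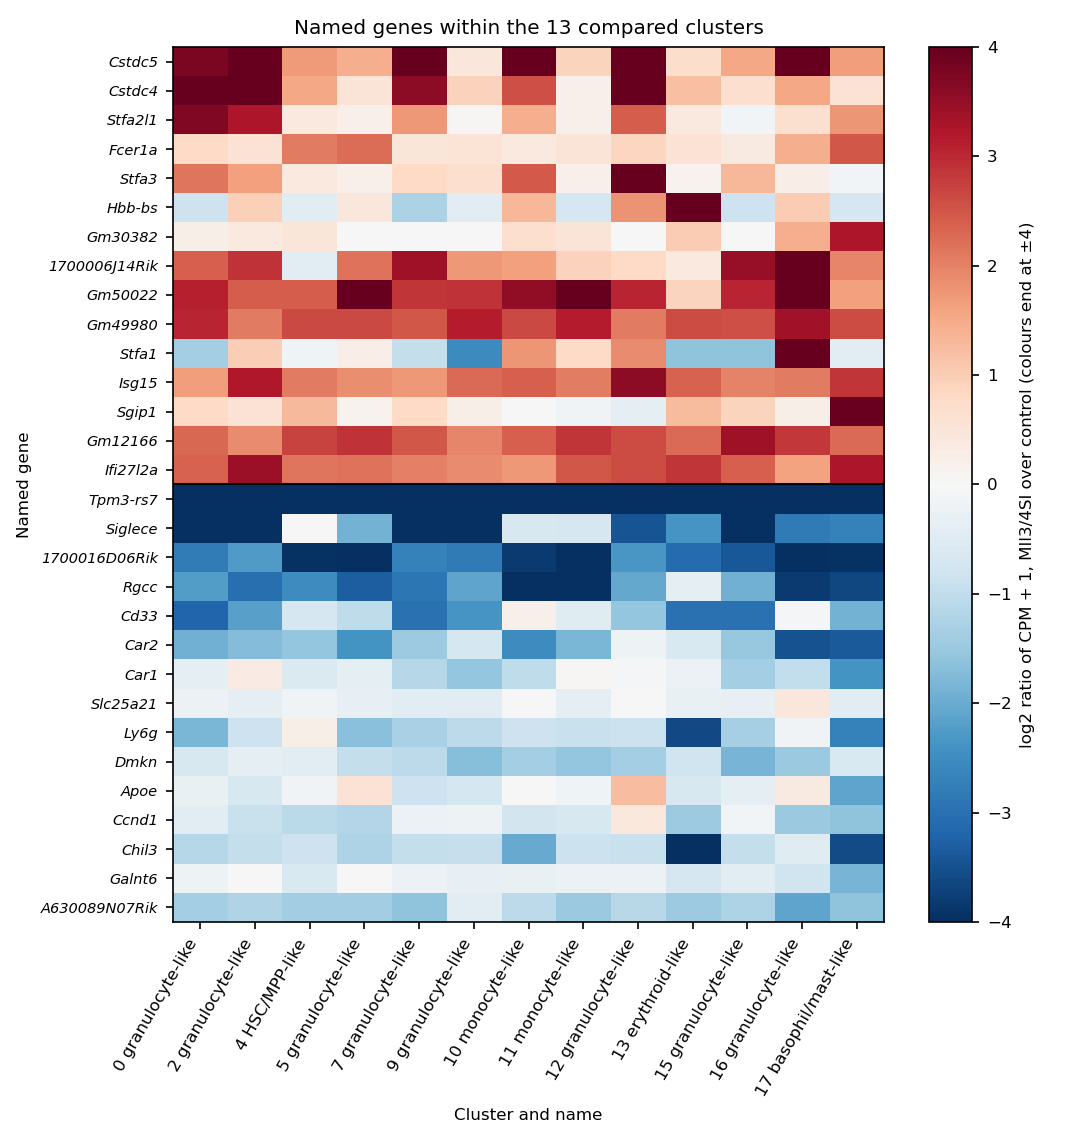
Heat map of the log2 ratio of CPM + 1 of Mll3/4SI to control for the 15 highest and 15 lowest named genes (rows) in the 13 compared clusters (columns). Isg15 and Ifi27l2a are higher and Tpm3-rs7 is lower in every column, while Fcer1a is past the fold in 4 columns.

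The largest rises were in the stefin A genes of chromosome 16, which encode small cytosolic inhibitors of cysteine proteases found in myeloid and skin cells. Of 10 tested members of the stefin and cystatin list 7 rose and 0 fell, against 1.58% and 0.93% of all tested genes. The list had a median log2 ratio of 3.37. Cstdc5 was at 2.39 and 1.19 CPM in the Hashtag1 and Hashtag2 parts of control, and at 263.7 and 214.3 CPM in those of Mll3/4SI. The gene lies at chr16:36359382-36367748 of GRCm38, by GENCODE M21. Over all cells it stood at 1.68 against 236.5 CPM, 141-fold higher (interval 124 to 161). Cstdc4 rose from 0.15 to 82.3 CPM, 543-fold (355 to 878). The parts of the 2 libraries lay far apart for both genes. Stfa2l1 was at 0.483 and 51.1 CPM, 106-fold higher (83.1 to 136), and Stfa3 at 0.498 and 20.5 CPM, 41.1-fold higher (32.4 to 53.0). Stfa2 had 0 UMIs in control and was at 15.4 CPM in Mll3/4SI, at least 710-fold higher against a floor of 3 UMIs in the control library. Cstdc6 had 3 UMIs in control and stood 307-fold higher, with a counting interval from 105 to 1490. Stfa1 rose 7.47-fold (7.07 to 7.90), from 10.2 to 76.2 CPM, and its parts were at 8.30 and 9.81 CPM in control and at 118 and 40.3 CPM in Mll3/4SI. The listed members on other chromosomes did not pass the fold. Cstb, the ubiquitous cytosolic stefin B, was at 56.1 and 75.4 CPM.

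This rise sat mostly in a small set of granulocyte-like cells. Summed over the 7 genes the level was 13.02 CPM in control and 488.5 CPM in Mll3/4SI, which is 37.5-fold higher. The sum in the single groups was 4.58 CPM (Mll3SI) and 1.72 CPM (Mll4SI). At least 3 of these UMIs were found in 108 control cells (1.51%) and 497 Mll3/4SI cells (6.94%). Clusters 3 and 14, whose leading genes are these stefins, held 87.1% of the UMIs, and 10 cells held 21.1%. In compared clusters Cstdc5 was still past the fold in 10 of 13. In granulocyte-like cluster 0, for example, it was at 8.15 CPM in control and 122.9 CPM in Mll3/4SI. Some of the 10 rested on low levels. In the HSC/MPP-like cluster Cstdc5 was at 0 and 2.26 CPM, and in the basophil and mast-like cluster at 0 and 2.15 CPM. Stfa1 was higher past the fold in 3 clusters and lower in 4, and without clusters of over 95% from 1 library its log2 ratio was 0.95, short of the fold. With each cell thinned to 3000 UMIs, Cstdc5 was found in 0.285% of control cells (0.174 to 0.440%) and 5.49% of Mll3/4SI cells (4.97 to 6.05%). Shallower cells, 131 of control and 140 of Mll3/4SI, were left out of the thinned shares. In erythroid-like cells, with median depths of 18970 and 22375.5 UMIs, which should lack it, the thinned shares were 0.231% and 0.855%. The unthinned shares were 0.741% and 12.2% over all cells of sufficient depth, and 0.231% and 1.71% in erythroid-like cells. The transcripts of Cstdc5 and Stfa1 are 96.9% identical over 618 bases and those of Stfa2 and Stfa2l1 96.5%. The split of reads within such pairs is therefore uncertain, while the sum of the 7 genes is less so. Cstdc4 and Stfa3 are less alike to Cstdc5, at 81.5% over 216 of 1859 bases and 85.1% over 348 of 412 bases.

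Interferon-stimulated genes were higher as a group. These genes encode antiviral proteins that cells make in response to type I or type III interferon. Of 47 tested members of the list 23 rose and 0 fell, against 1.58% and 0.93% of all tested genes. At a log2 ratio of 0.5, 35 were higher and 0 lower, against 4.51% and 4.46% of all tested genes. The list median was 0.96 against -0.05. The median was 0.51 over the 28 members that averaged 10 CPM or more, 0.47 with 10 CPM added and 0.53 with the cluster shares of control. Promoters of such genes are known for repeats of GAAA, the interferon-stimulated response element, written here as GAAA, any 2 bases and GAAA, and searched on both strands with overlapping matches allowed. This motif lay in 1131 of 32851 promoter windows of 300 bases (3.44%, 250 before to 50 after the start), and in 23 of the 38 list members with a window (60.5%). The first share counts windows, while a gene counted if any of its windows held the motif, so these shares are in unlike units. Members were listed as known interferon-stimulated genes, so their share is background and no result of these libraries. The 38 were 80.9% of the tested list. Among 15 MHC class I list members with a window, 4 held it (26.7%). The sequences below are the 250 bases before the start of the highest called list members whose window holds the motif, so its presence in them is not a result. They are shown 5′ to 3′ on the gene's strand from RefSeq (GRCm38.p6), with each motif in capitals. Isg15 lies at chr4:156200819-156201068 (minus strand), Ifit1 at chr19:34640639-34640888 (plus), Oas1g at chr5:120887614-120887863 (minus) and Rsad2 at chr12:26456453-26456702 (minus). The Ifit1 and Rsad2 matches lie on the opposite strand, so that they read as TTTC, any 2 bases and TTTC.
Isg15: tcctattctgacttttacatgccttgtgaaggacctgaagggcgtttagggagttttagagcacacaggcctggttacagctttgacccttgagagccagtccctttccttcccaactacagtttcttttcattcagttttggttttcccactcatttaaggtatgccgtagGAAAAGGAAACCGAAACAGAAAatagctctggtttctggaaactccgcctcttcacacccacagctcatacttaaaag
Ifit1: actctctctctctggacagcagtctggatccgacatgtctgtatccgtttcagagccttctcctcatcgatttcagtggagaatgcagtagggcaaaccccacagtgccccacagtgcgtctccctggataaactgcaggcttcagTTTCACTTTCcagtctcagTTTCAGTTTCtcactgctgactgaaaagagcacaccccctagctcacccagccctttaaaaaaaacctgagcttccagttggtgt
Oas1g: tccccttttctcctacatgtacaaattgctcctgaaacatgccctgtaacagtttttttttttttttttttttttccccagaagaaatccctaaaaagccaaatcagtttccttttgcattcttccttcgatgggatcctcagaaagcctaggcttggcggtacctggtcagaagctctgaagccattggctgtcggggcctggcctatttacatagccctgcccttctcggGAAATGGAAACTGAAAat
Rsad2: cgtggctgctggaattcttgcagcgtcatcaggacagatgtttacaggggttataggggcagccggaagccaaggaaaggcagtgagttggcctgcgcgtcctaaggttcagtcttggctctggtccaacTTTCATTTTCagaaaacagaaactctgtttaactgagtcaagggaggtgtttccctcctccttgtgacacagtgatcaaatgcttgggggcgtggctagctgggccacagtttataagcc

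Isg15 encodes a ubiquitin-like protein that is conjugated to others upon interferon signals. It was at 3.14 and 3.90 CPM in the hashtag parts of control and at 12.9 and 42.0 CPM in those of Mll3/4SI, 8.20-fold higher over all cells (7.47 to 9.02). Ifi27l2a, another interferon-induced gene, was at 7.55 and 6.84 CPM in control and at 22.3 and 62.5 CPM in Mll3/4SI, 6.14-fold higher (5.75 to 6.57). Both genes were past the fold in all 13 compared clusters. In the HSC/MPP-like cluster Isg15 was at 6.38 CPM in control and 30.5 CPM in Mll3/4SI. In the erythroid-like cluster it was at 6.71 and 38.9 CPM. Irf7, the transcription factor that amplifies interferon production, was at 1.74 and 2.13 CPM in the control parts and 4.51 and 16.02 CPM in the Mll3/4SI parts, 5.65-fold higher. Ifit1, which binds foreign RNA, rose 8.95-fold from 1.06 to 9.49 CPM. Rtp4 rose 6.04-fold from 3.34 to 20.2 CPM, and Oasl2, of the oligoadenylate synthetase family, rose 5.22-fold from 3.78 to 19.8 CPM. Rsad2, the antiviral enzyme viperin, rose 4.92-fold, and Oas1g rose 6.91-fold. The nucleic acid sensor gene Zbp1 rose 6.08-fold and Ifitm3, whose product blocks virus entry, rose 2.34-fold from 208 to 486 CPM. Gbp2, a guanylate-binding protein gene, rose 2.32-fold, but its hashtag parts overlapped between the libraries.

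The rise was larger in Hashtag2 than in Hashtag1 cells. The median log2 ratio of the 47 members was 0.34 in Hashtag1 and 1.37 in Hashtag2 cells. The cells of the 5 Mll3/4SI clusters had a median of 1.22 and other Mll3/4SI cells 0.64. Within the 13 compared clusters the medians were 0.37 (8 members past the fold, against 0.771% of all genes) in Hashtag1 cells and 0.85 (20 members, against 1.46%) in Hashtag2 cells. In the Mll3/4SI clusters they were 0.56 (16 members, 2.14%) and 1.31 (28 members, 3.36%). What the hashtags marked was not given, and its part in the result was not tested.

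The interferon genes, receptors and feedback genes moved less. Of 23 tested 1 rose (Usp18, which dampens receptor signals, 5.13-fold) and 0 fell, with a median of -0.10. Ifnar1, a subunit of the type I receptor, was at 18.7 and 15.7 CPM. Irf9, a transcription factor of the interferon response, was at 18.9 and 29.3 CPM, short of the fold. Of 17 tested MHC class I presentation genes, 2 rose and 0 fell, against 1.58% and 0.93% of all tested genes. The median of these 17 was 0.44. H2-Q6 rose 2.68-fold from 16.7 to 44.8 CPM, and its parts (15.9 and 17.2 against 20.8 and 64.7 CPM) did not overlap. H2-Q7 rose 2.31-fold from 86.3 to 198.9 CPM, but its Mll3/4SI Hashtag1 part, at 89.4 CPM, lay between the control parts. H2-K1 and H2-D1, the classical heavy chains, were at 673 and 512 CPM in control and 920 and 714 CPM in Mll3/4SI, and B2m, their light chain, at 816 and 1098 CPM. The median of the list was 0.01 in Hashtag1 and 0.71 in Hashtag2 cells. The nonclassical H2-Q genes are close copies, so that their reads can be split.

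**Figure D3:**
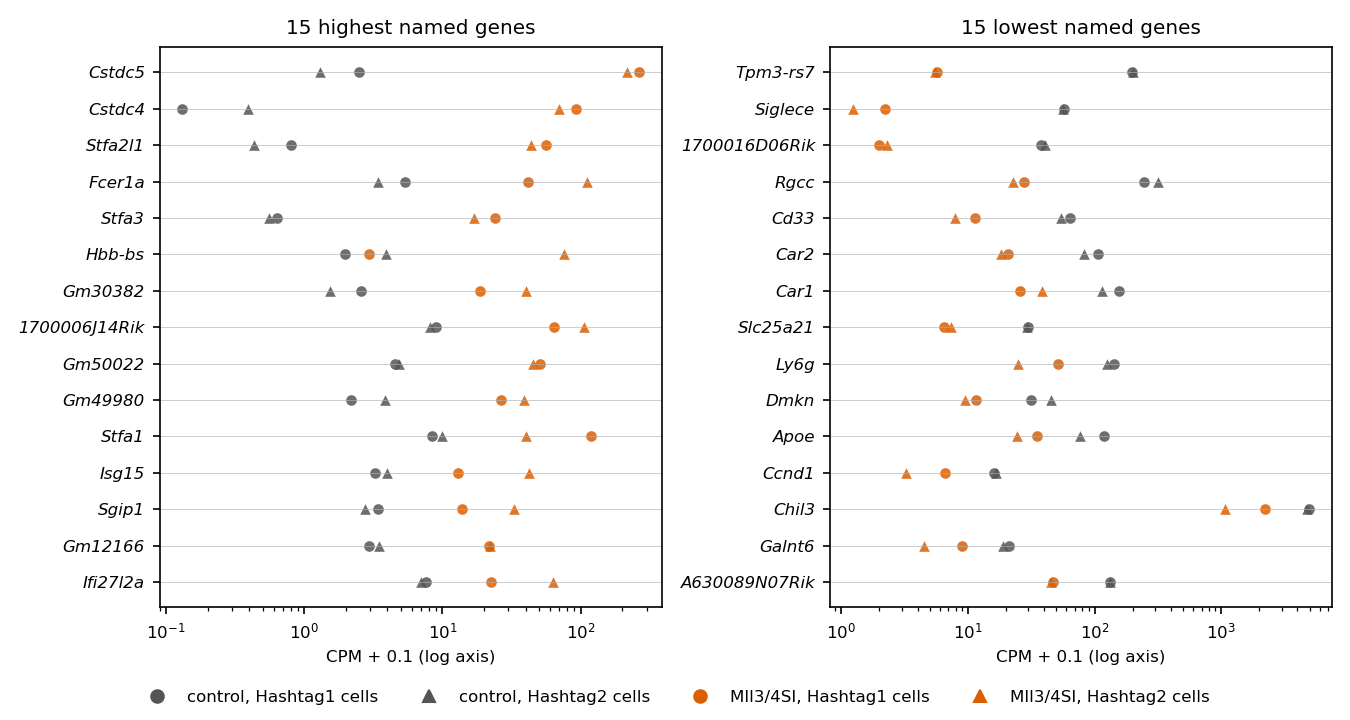
CPM + 0.1 on a log axis for the 15 highest and 15 lowest named genes, with 1 point for each of the 4 hashtag parts. Control and Mll3/4SI points are separate for Cstdc5 and Siglece, and Hbb-bs overlaps.

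Immediate early and AP-1 genes encode transcription factors induced within minutes of a stimulus or of tissue handling. Of 20 tested 4 rose and 0 fell, against 1.58% and 0.93% of all tested genes, with a median of -0.02. Fosb rose 6.10-fold, from 1.10 to 6.69 CPM. Jun was at 11.4 and 17.2 CPM in control parts and at 16.7 and 72.1 CPM in Mll3/4SI parts, 3.19-fold higher over all cells, with overlapping parts. Fos rose 2.91-fold and Egr1 3.02-fold, also with overlap. In Mll3/4SI 70.4% of the Jun UMIs came from the clusters drawn mostly from that library. How the cells were handled was not given.

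Fcer1a, the ligand-binding subunit of the IgE receptor of basophils and mast cells, was at 5.25 and 3.34 CPM in control parts and 41.6 and 110.3 CPM in Mll3/4SI parts. The gene lies at chr1:173221284-173227214. Over all cells it was 18.1-fold higher (16.7 to 19.7), at 4.29 against 77.5 CPM, and the parts of the libraries lay apart. Of its Mll3/4SI UMIs 64.9% lay in the clusters from that library, led by cluster 8 at 403.6 CPM, whose 753 cells carried 6 of 14 HSC/MPP and 5 of 12 basophil and mast cell markers. It was past the fold in 4 of 13 compared clusters. In the basophil and mast-like cluster it was at 175 CPM in control and 978 CPM in Mll3/4SI. Of 16 tested basophil and mast cell genes 4 rose and 0 fell, against 1.58% and 0.93% of all tested genes. The list median was 0.33 (0.03 in Hashtag1, 0.64 in Hashtag2). Without clusters of over 95% from 1 library the median was 0.08. Cpa3, the mast cell carboxypeptidase, rose 4.44-fold from 64.1 to 284 CPM and was past the fold in 9 clusters. Ms4a2, the beta subunit of the same IgE receptor, rose 2.94-fold from 18.7 to 54.9 CPM. Il6, the cytokine, rose 7.03-fold from 0.952 to 6.69 CPM. Mcpt8, the basophil protease, was at 33.8 and 46.6 CPM with overlapping parts, and Prss34 at 13.3 and 7.78 CPM. Of 20 tested megakaryocyte and platelet genes 2 rose and 0 fell, beside the same shares of all tested genes. The list median was 0.24 (-0.10 in Hashtag1, 0.88 in Hashtag2). The sign of this median turned with the cells compared: it was 0.71 in the clusters drawn mostly from Mll3/4SI and -0.56 without clusters of over 95% from 1 library. The genes that rose were the cytoskeletal gene Plek, 2.25-fold (29.9 to 67.4 CPM), and the platelet adhesion gene Selp, 2.10-fold (12.8 to 26.9 CPM). In Mll3/4SI 84.7% of the Selp UMIs lay in the clusters from that library. Pf4, a platelet chemokine, was at 52.5 and 77.6 CPM with overlapping parts. The antibody CD41 (Itga2b) had a median of 2 UMIs per cell in control and 9 in Mll3/4SI, and 381 in cluster 8. Itga2b RNA was at 11.5 and 21.7 CPM, 1.88-fold, short of the fold.

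Other high genes had RNAs of less known function. The noncoding gene 1700006J14Rik, which lies antisense within Hmga2, rose 10.5-fold (9.87 to 11.1) from 8.46 to 88.6 CPM, and stood at 58.3 CPM in Mll4SI. Hmga2, a chromatin protein gene of early progenitors, was at 19.9 and 36.7 CPM, short of the fold. The strand of the counting was not stated in the sources used here, so that reads of this pair may not be told apart. Gm50022 rose 10.4-fold and was past the fold in 12 clusters. Gm12166 rose 6.99-fold from 3.12 to 21.8 CPM, with 21.6 and 21.98 CPM in the Mll3/4SI parts. Gm49980 rose 11.2-fold from 2.96 to 33.3 CPM, and was at 15.2 CPM in Mll3SI. Gm30382 rose 14.48-fold with 91.3% of its Mll3/4SI UMIs in the clusters drawn mostly from that library. Sgip1 rose 7.76-fold with 83.5% there. Hbb-bs, an adult beta-globin gene, was at 1.86 and 3.83 CPM in control parts and at 2.83 and 75.7 CPM in those of Mll3/4SI. In Mll3/4SI 10 cells held 97.7% of its UMIs, beside a ratio of 14.4 over all cells. Cdh1, the epithelial cadherin, rose 8.36-fold from 1.72 to 14.4 CPM as the sole member of 16 tested stem cell receptor and adhesion genes that passed the fold. Ltbp1, a latent TGF-beta binding protein, rose 8.15-fold from 2.04 to 16.7 CPM, with 91.6% of its UMIs in the clusters from Mll3/4SI.

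The largest fall was in Tpm3-rs7, annotated as a tropomyosin 3 related sequence at chr14:113314608-113316754. It was at 196.7 and 200.9 CPM in control parts and at 5.64 and 5.37 CPM in Mll3/4SI parts, 36.3-fold lower over all cells (33.9 to 38.9). It was past the fold in all 13 clusters, and stood at 6.01 CPM in Mll3SI and 115 CPM in Mll4SI. Its parent-like gene Tpm3, on chromosome 3, was at 270 CPM in control and 479 CPM in Mll3/4SI, 1.77-fold higher. The transcripts, of 2147 bases (Tpm3-rs7) and 2374 bases (Tpm3), share an aligned stretch of 522 bases at 99.4% identity. The sum of the pair was 469 CPM in control and 484 CPM in Mll3/4SI, a ratio of 1.03, with 464 CPM for Mll3SI and 467 CPM for Mll4SI. Reads of such a stretch can be assigned to either, so the level of each gene alone is uncertain. Of the other lower genes in every compared cluster, 1700016D06Rik was 19.3-fold lower (17.3 to 21.7), from 39.1 to 2.02 CPM, and was at 3.07 CPM in Mll3SI. A630089N07Rik was lower past the fold in 12 of the 13 clusters. It fell 2.94-fold over all cells, from 133.8 to 45.5 CPM, and was at 48.0 CPM in Mll3SI.

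Several sialic acid binding receptors and neighbours on chromosome 7 fell. Siglecs dampen signals of myeloid cells through inhibitory motifs. Siglece was at 57.2 and 55.8 CPM in control parts and at 2.10 and 1.13 CPM in Mll3/4SI parts, 37.1-fold lower (32.6 to 42.3), and it was past the fold in 10 clusters. The gene lies at chr7:43651070-43660161 and Cd33 at chr7:43524216-43544428. In granulocyte-like cluster 0 Siglece was at 120.6 and 0.748 CPM. Cd33 was at 63.9 and 53.9 CPM in control parts and at 11.3 and 7.75 CPM in Mll3/4SI parts. It was 6.26-fold lower (5.92 to 6.62), and lower past the fold in 9 clusters. Siglecf fell 4.45-fold from 7.39 to 1.66 CPM and was lower past the fold in 10 clusters. Nkg7, a cytotoxic granule gene also made by early granulocyte precursors, was at 233 and 312 CPM in control parts and at 101 and 102 CPM in those of Mll3/4SI, 2.68-fold lower. In the same megabase, 43 to 44 Mb of chromosome 7, 6 of 12 tested genes passed the fold: Siglece, Cd33, Siglecf, Nkg7 and Cldnd2 downward and Klk8, a kallikrein-type protease, upward (5.21-fold, 8.05 to 41.9 CPM). Siglecg stood at 15.8 and 25.3 CPM. Of 1820 windows of 1 Mb with tested genes, 7 held at least 3 genes past the fold. The others include the stefin window of chromosome 16 (7 of 16), that of Fcer1a on chromosome 1 (5 of 10, with Ackr1, Ifi206, Ifi213 and Ifi204), the oligoadenylate synthetase window of chromosome 5 (5 of 12) and the Car1 window of chromosome 3 (3 of 7). Within 5 Mb of Kmt2c 1 of 55 tested genes was past the fold (Il6), and within 5 Mb of Kmt2d 4 of 105 were (Spats2 upward, and Galnt6, I730030J21Rik and Acvrl1 downward), against 2.51% over all autosomes.

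Rgcc, a regulator of the cell cycle that responds to complement and TGF-beta signals, was at 246.9 and 316.4 CPM in control parts and at 27.8 and 22.4 CPM in Mll3/4SI parts. The gene lies at chr14:79288756-79301645. It was 11.0-fold lower over all cells (10.6 to 11.4) and past the fold in 12 clusters, while it stood at 326 CPM in Mll3SI and 230 CPM in Mll4SI. In granulocyte-like cluster 5 its level was 744 CPM in control and 74.2 CPM in Mll3/4SI. In the HSC/MPP-like cluster it was 67.7 and 11.1 CPM. Of 28 tested TGF-beta and Smad genes 1 rose (Ltbp1) and 2 fell, against 1.58% and 0.93% of all tested genes. Those that fell were Rgcc and Tgfbr3, the betaglycan co-receptor, 3.05-fold lower. A list of cell cycle inhibitors, D cyclins and growth arrest genes had 19 tested members, of which 0 rose and 2 fell. These were Rgcc and Ccnd1, whose product cyclin D1 drives entry into the cell cycle and is no inhibitor. Ccnd1 fell 3.60-fold from 16.2 to 4.51 CPM. The survival gene Bcl2 fell 2.17-fold from 116 to 53.6 CPM and was past the fold in 0 of 13 clusters.

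Some genes of late granulocytes fell in the summed cells. Of 21 tested secondary granule and late neutrophil genes 1 rose and 4 fell, against 1.58% and 0.93% of all tested genes. The list had a median of -0.26. Ly6g, the surface marker of mature neutrophils, was at 142.6 and 124.5 CPM in control parts and at 51.4 and 24.7 CPM in Mll3/4SI parts, 3.65-fold lower. Chil3, a chitinase-like secreted protein, was at 4950 and 4765 CPM in control parts and at 2209 and 1068 CPM in Mll3/4SI parts, 3.05-fold lower (3.03 to 3.06). Ly6g was lower past the fold in 7 and Chil3 in 5 of 13 clusters. Padi4, which citrullinates histones, fell 2.69-fold, and the gelatinase gene Mmp9 fell 2.29-fold. Itgb2l, a beta integrin-like gene, rose 2.54-fold from 39.4 to 100.1 CPM. Camp, an abundant antimicrobial peptide, had a ratio of 1.001, and Ltf, lactoferrin, was at 3035 and 1924 CPM, short of the fold. Summed over the 21 tested members the level was higher in Mll3/4SI, at 167845 CPM against 144360 CPM in control. The median of the list was 0.37 in Hashtag1 and 0.38 in Hashtag2 cells summed over the 13 clusters, whose sizes differ between the libraries, and -0.08 taken cluster by cluster. It was -0.91 and -1.18 in the clusters drawn mostly from Mll3/4SI. Without clusters of over 95% from 1 library, Ly6g and Chil3 were short of the fold. Among 16 primary granule genes 0 rose and 1 fell (Nkg7).

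The antibody against Gr1, which binds Ly6g and Ly6c, had a median of 240 UMIs per cell in control (264 in Hashtag1 cells and 182 in Hashtag2 cells) and 47 in Mll3/4SI (99 and 34). In the 13 compared clusters, whose sizes differ between the libraries, the median was 93 UMIs in control and 213 in Mll3/4SI. In the same cells the mean was 556 and 536 UMIs and the Gr1 share of antibody UMIs 22.9% and 17.8%, so that median and mean differed in direction there. In the 5 Mll3/4SI clusters the median was 29 UMIs. The antibody against the Fc receptors CD16/32 had medians of 445 and 708 UMIs, CD11b 232 and 289, and CD48 382 and 492.5. CD150, CD34 and CD135 had medians of 2 and 3, 13 and 13, and 1 and 1. These are levels per cell with no correction for background staining or for antibody depth. Surface antibody UMIs averaged 2624 per control cell and 2970 per Mll3/4SI cell. As shares of these UMIs CD16/32 was at 19.1% and 27.3%, CD11b at 14.1% and 15.9%, and CD48 at 27.3% and 30.5%.

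**Figure D4:**
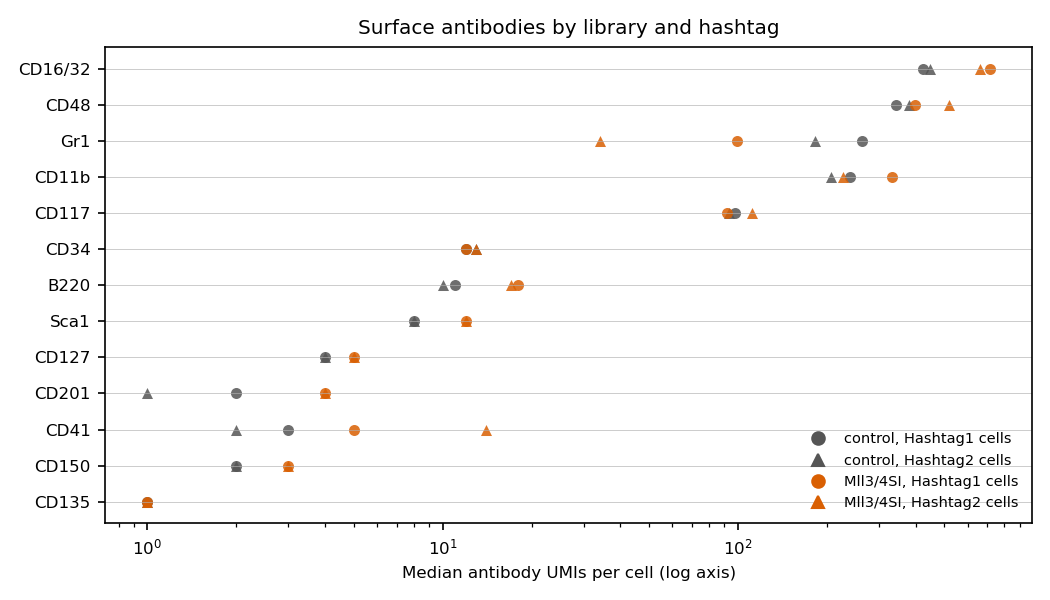
Median antibody UMIs per cell for the surface antibodies in control and Mll3/4SI, with 1 point per hashtag part. Gr1 is lower in Mll3/4SI (47 against 240) and CD41 is higher (9 against 2).

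Of 23 tested erythroid genes 5 fell and 2 rose over all cells, against 0.93% and 1.58% of all tested genes. The list median was -0.53 against -0.05 for all tested genes. This median was -0.24 with each cell weighted alike, -0.21 where members needed a mean of 10 CPM and -0.16 with 10 CPM added. Car2, a carbonic anhydrase of erythroid and early progenitor cells, was at 105.6 and 82.4 CPM in control parts and at 20.8 and 18.1 CPM in Mll3/4SI parts. It was 5.09-fold lower (4.89 to 5.30), and lower past the fold in 10 of 13 clusters. Car1, a red cell carbonic anhydrase, fell 4.12-fold from 134.9 to 32.8 CPM, and 56.4% of its Mll3/4SI UMIs came from 10 cells. The erythroid-like cluster held 436 control cells (6.10%) and 124 Mll3/4SI cells (1.73%). Inside it Car1 was at 1869 and 1602 CPM and Car2 at 895 and 585 CPM. Klf1, the erythroid transcription factor, fell 3.14-fold, Ermap, a blood group protein gene, 3.81-fold, and Aqp1, the water channel, 3.17-fold. The rises were of Hbb-bs and Hbb-bt, whose parts overlapped. The median of the list was -0.66 in Hashtag1 and -0.12 in Hashtag2 cells summed over the 13 compared clusters. Taken cluster by cluster it was -0.02, and with the cluster shares of control it was 0.07, of the opposite sign. With the cluster shares of control, Car1 and Car2 were short of the fold. Slc25a21, a mitochondrial carrier gene, fell 4.33-fold over all cells and was past the fold in 0 clusters.

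Stem cell transcription factors fell in 3 of 21 tested members, with 0 rising, against 0.93% falling and 1.58% rising of all tested genes. The list median was -0.03 (0.03 with median-of-ratios scaling). The HSC/MPP-like cluster held 728 control cells (10.2%) and 261 Mll3/4SI cells (3.64%), so the summed values mix its size with the level per cell. Taken cluster by cluster the list median was -0.06. Without clusters of over 95% from 1 library the median was -0.55. It was -0.62 and -0.34 in Hashtag1 and Hashtag2 cells of the 13 compared clusters, and -0.15 and 0.07 in those of the clusters drawn mostly from Mll3/4SI. Mecom, which maintains long-term stem cells, was at 38.8 and 41.0 CPM in control parts and at 15.4 and 12.2 CPM in Mll3/4SI parts, 2.996-fold lower (2.85 to 3.15), and was past the fold in 4 clusters. Hoxa9, a homeobox gene of early progenitors, fell 2.70-fold from 15.6 to 5.80 CPM. Nfia, a chromatin-binding factor of progenitors, fell 2.19-fold from 35.7 to 16.3 CPM. Hlf, another stem cell factor, stood at 32.8 and 24.3 CPM, and Meis1 at 88.3 and 119.5 CPM, both short of the fold. Early lymphoid and B-lineage genes were called once in 22 (0 rose, 1 fell), with a median of -0.38. Of these 22, 10 stood at or below a log2 ratio of -0.5, against 4.46% of all tested genes. At or above 0.5 stood 1, against 4.51% of all tested genes. Vpreb1, the surrogate light chain gene, fell 2.31-fold from 21.4 to 9.27 CPM, but its parts overlapped (29.2 and 13.9 against 15.99 and 4.03 CPM). Flt3, the receptor of lymphoid-primed progenitors, was at 25.0 and 12.5 CPM, and Ebf1, the B-cell factor, at 48.1 and 29.8 CPM. In the clusters drawn mostly from Mll3/4SI the median was -1.74, against -0.13 within the compared clusters. The B-lymphoid-like cluster held 82 control cells and 45 Mll3/4SI cells, below the number set for comparison.

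**Figure D5:**
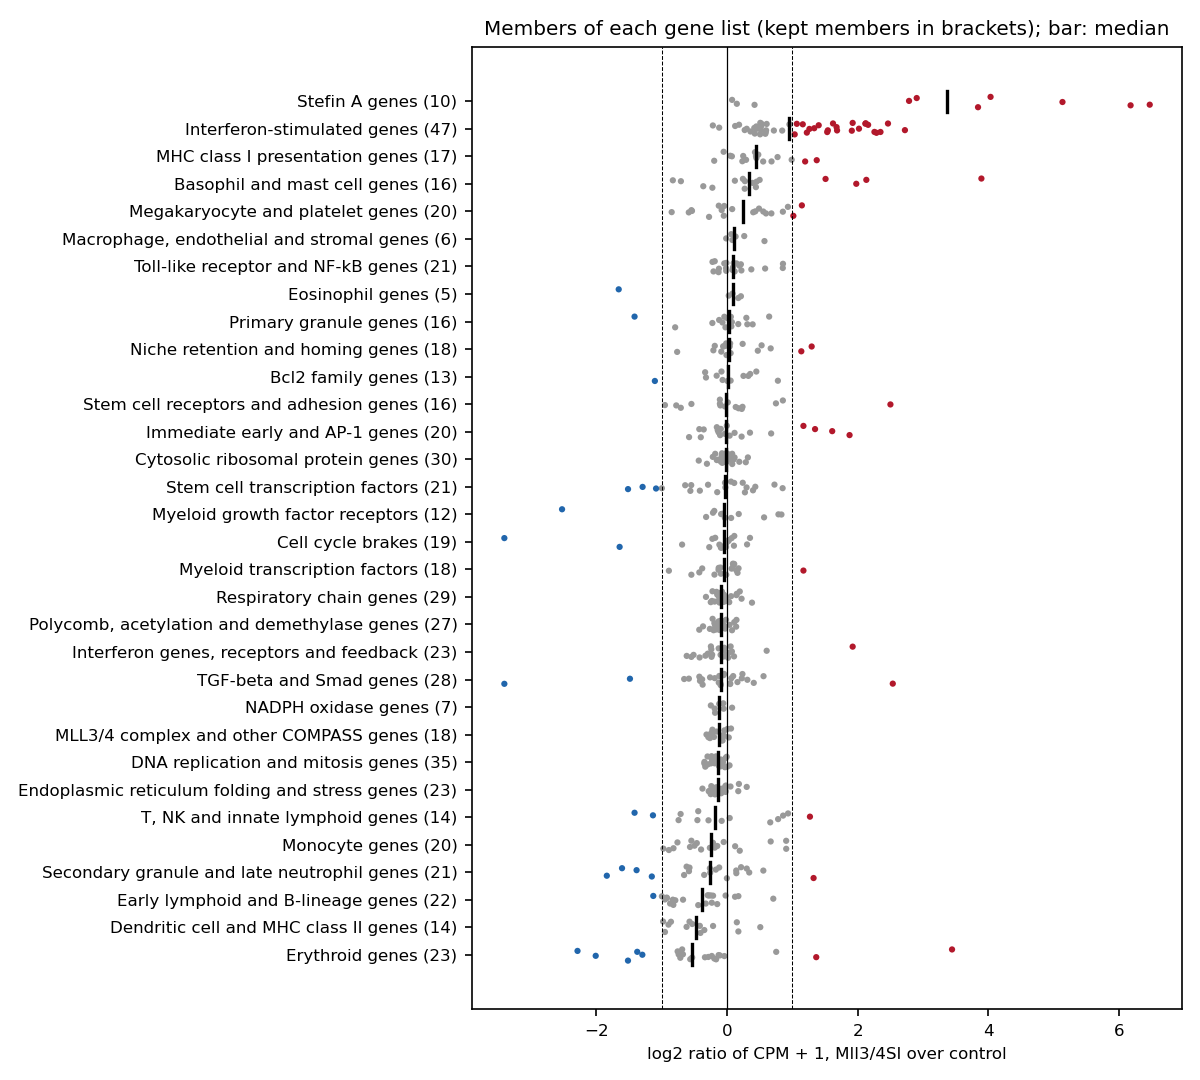
Log2 ratios of CPM + 1 of the tested members of each gene list, with a bar at the list median. The stefin A list (median 3.37) and the interferon-stimulated list (0.96) stand highest, and the erythroid list (-0.53) lowest.

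Several lists had 0 genes called, where 1.58% of all tested genes were higher and 0.93% lower. These were the MLL3/4 complex and other COMPASS genes (18 tested), Polycomb, acetylation and demethylase genes (27), cytosolic ribosomal protein genes (30), respiratory chain genes (29), endoplasmic reticulum genes (23), macrophage, endothelial and stromal markers (6 of 20 tested), NADPH oxidase genes (7) and Toll-like receptor and NF-kB genes (21). Of 35 DNA replication and mitosis genes 0 were called and 33 stood below 0, where 7563 of all 11940 tested genes also stood. Their median was -0.14, and it was -0.01 without clusters of over 95% from 1 library. Of 14 dendritic and MHC class II genes 0 passed the fold, with a median of -0.47 (0.12 in Hashtag1, -0.95 in Hashtag2). Monocyte genes had 0 of 20 called, with a median of -0.24. Among 18 niche retention and homing genes 2 rose, Rgs1, a brake on chemokine receptors, 2.65-fold, and Cxcr2, the neutrophil chemokine receptor, 2.29-fold. Among 14 T, NK and innate lymphoid genes 1 rose (Gzma, the granzyme A gene, 3.67-fold) and 2 fell (Cd3d, 2.31-fold, and Nkg7). The remaining eosinophil list of 5 tested members had 1 gene that fell (Siglecf), the list of myeloid growth factor receptors and surface markers had 1 of 12 that fell (Cd33, a Siglec and no growth factor receptor), and myeloid transcription factors had 1 of 18 that rose (Egr1).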

How the data were processed

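Feature by cell UMI counts were deposited by the authors for each library. Per the submitters' processing notes they came from Cell Ranger 7.1.0 and build mm10, and no other step was given in the sources used here. Groups came from sample titles. Counts of kept cells were summed and scaled to CPM. Genes of chromosomes X, Y and the mitochondrion were left out, by GENCODE M21. Calls used CPM + 1, and plain folds carry exact 95% intervals of counting error.

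Clusters used scanpy 1.11.5 and leidenalg 0.10.2 (Python 3.11.15, 2000 variable genes, 30 components, resolution 1) on both libraries. Clusters were called like a cell type from marker genes, and clustering was run again after 2 stefin symbols were corrected. Doublets, marked with Scrublet (409 and 411 cells), were kept, and an alternative removed them. Transcripts were compared with BLAST 2.17.0. The calculations were tested on simulated data.

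Named genes were the 15 highest and 15 lowest log2 ratios among genes with a mean of at least 10 CPM, up to 4 of each list, Kmt2c, Kmt2d and their called neighbours. Others named were chosen after their values were seen. Members and lists were chosen with earlier results of these data known. Alternatives changed scaling, pseudocount, filters, cell weights, doublets, hashtag and cluster make-up. Promoters were not matched for enough genes (under 80%) to count the motif over all called genes. One item is not reported here.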

Additional observations from a re-analysis of the deposited data

Results flagged for a closer look

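The X-linked RNA Xist, outside the autosomal comparison, was at 1348.68 CPM in Mll3/4SI against 0.0289 CPM in control. It was set apart as a signal that the autosomal comparison does not use, far above its level in the control library. The Y-linked Eif2s3y was at 63.2 CPM in control and had 0 UMIs in Mll3/4SI. As said above, the group and this difference in sex-linked RNA cannot be told apart in any result.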

How the results depend on the processing

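No paired analysis was possible because each group had 1 library. Against 189 higher and 111 lower genes, adding 10 CPM in place of 1 gave 42 and 20, and a mean of at least 10 CPM gave 69 and 47. Leaving out clusters of over 95% from 1 library gave 73 lower genes. Hashtag1 cells alone gave 107 higher genes and Hashtag2 cells alone 197 lower genes. The cluster make-up of control gave 88 and 43. Hashtag1 cells of the 13 compared clusters, an alternative chosen after seeing the data, gave 92 higher genes. The cause was not tested, apart from the fewer genes that a higher filter tests. Counts from median-of-ratios scaling (202 and 98), no filter on low values (205 and 118), cells weighted alike (196 and 109) and doublets removed (192 and 110) stayed within 1.5 times. With 10 CPM added, 28 of the 30 highest and lowest named genes remained past the fold. Without clusters of over 95% from 1 library 25 remained, in Hashtag1 cells 29, and with the cluster make-up of control 21. Under these 4 alternatives 0 changed direction. The 30 genes were picked as the most extreme of the same UMIs, so this adds no support to their direction. Genes near 1 CPM rest on few UMIs, which limits their folds.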

Other observations

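The share of surface antibody UMIs that bound CD201 (Procr) was 0.112% in control and 0.706% in Mll3/4SI, but 2 Mll3/4SI cells, with 78804 and 34986 UMIs, held 75.7% of that library's total, and the medians were 2 and 4 UMIs per cell. For Gr1, 1 cell with 318036 UMIs held 12.2% of the Mll3/4SI total.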
